A study of Mus musculus with 8 samples.

Results

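*Adad1*, *Adad2*, *Adar* and *Adarb1* encode proteins that bind double-stranded RNA and share a deaminase-like domain. They were examined in RNA-seq of germ cells from 8 male mice of the C57BL/6 background at 15 days after birth. The 4 genes were taken by symbol from the 55357 genes of the table, and all 4 were among the 20187 genes kept for testing. *Adad2* was picked because its level was lower in the mutant in these same libraries, and the other 3 genes were picked as its relatives. The genotype values of the 4 genes are therefore a description, with standard errors (SE) and without p-values.

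The 4 control males carried floxed alleles of *Mgat2* (*Mgat2*[F/F]). The other 4 males (cKO) carried the same floxed alleles with the *Stra8*-iCre transgene, whose *Stra8* promoter drives Cre in spermatogonia, so that deletion is aimed at germ cells. *Mgat2* encodes a Golgi GlcNAc-transferase of complex N-glycan synthesis. Each male gave 1 library, made from cells of the testis tubules after enzymatic dissociation.

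Adenosine deaminases acting on RNA (ADARs) convert adenosine to inosine in double-stranded RNA, which can recode a transcript and keeps cellular RNA from being sensed as viral. *Adar* encodes ADAR1, which is active in many tissues, and *Adarb1* encodes ADAR2, best known for recoding glutamate receptor transcripts in neurons. The adenosine deaminase domain proteins ADAD1 and ADAD2 are germ cell relatives that keep the RNA-binding and deaminase-like domains but lack residues needed for catalysis. Male mice without either protein are sterile, and ADAD2 lies in cytoplasmic granules of spermatocytes with RNF17.

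The difference between the ADARs and the ADADs can be seen in the stretch of coding sequence that holds the catalytic glutamate. The stretches are shown because they show which of the 4 genes encode that residue. They were read from the canonical transcripts of GENCODE mouse release 39 on the genome build GRCm39, and run 5′ to 3′ on the coding strand. Capitals mark the 9 bases that encode histidine, alanine and glutamate in *Adar*, and the 9 bases aligned with them in the other genes.
*Adar*: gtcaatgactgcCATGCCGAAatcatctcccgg
*Adarb1*: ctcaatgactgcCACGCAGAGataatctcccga
*Adad1*: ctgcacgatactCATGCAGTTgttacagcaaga
*Adad2*: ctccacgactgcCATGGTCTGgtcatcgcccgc
The last codon in capitals encodes glutamate in *Adar* (GAA) and *Adarb1* (GAG), valine in *Adad1* (GTT) and leucine in *Adad2* (CTG). The first codon encodes histidine in all 4 genes. The stretches lie in exon 9 of *Adar* (chr3:89653919-89653951, forward strand), exon 6 of *Adarb1* (chr10:77149286-77149318, reverse strand), exon 7 of *Adad1* (chr3:37134014-37134046, forward strand) and exon 5 of *Adad2* (chr8:120341955-120341987, forward strand).

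The encoded proteins were 1152 residues long for *Adar*, 701 for *Adarb1*, 619 for *Adad1* and 561 for *Adad2*. In local alignments, identity was highest between both ADARs, with 40.1% over 546 aligned residues. The ADADs were 38.7% identical over 442 residues. The 4 pairs of an ADAD with an ADAR were 32.1% to 35.0% identical.

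Totals of expected counts, the reads that RSEM assigns to genes, ran from 12584726 to 15907505 per library in controls and from 14069373 to 15572196 in cKO. A signal of 3 counts was worth 0.189 to 0.238 CPM (counts scaled to a common library size), a floor for counting error only, and all 4 genes were far above it. The deleted gene *Mgat2* had 1028, 490, 1017 and 766 counts in the controls, given here and below in order of replicate number. In the cKO libraries it had 531, 310, 539 and 226 counts. Its groups overlapped, since cKO 1 and cKO 3 had more counts than control 2. In normalized values *Mgat2* had 56.4 ± 16.9 CPM in controls and 27.2 ± 10.8 in cKO (SD, n = 4 each), and edgeR's quasi-likelihood test gave an adjusted p of 0.47 and DESeq2 0.0252. The preparations also held RNA of somatic cells, for the 10 Sertoli cell markers summed to 6941 to 8703 TPM, RSEM's level per transcript length in controls and 7415 to 8721 in cKO, led by *Clu*. Leydig cell markers summed to 35.9 to 89.7 TPM and 48.6 to 73.8 TPM, markers of myoid and endothelial cells to 385 to 520 and 349 to 660, and those of immune and blood cells to 50.8 to 112 and 75.8 to 137, in controls and cKO respectively.

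*Adad2* was less abundant in cKO than in control germ cells, at 0.504 times the control level. *Adad2* (ENSMUSG00000024266) is a gene of 10 exons at chr8:120339426-120343670 on the forward strand. The controls had 689, 576, 731 and 407 *Adad2* counts and the cKO 347, 313, 295 and 252. Normalized for library size, these were 46.8, 37.3, 46.2 and 31.8 CPM in controls and 23.0, 20.3, 20.6 and 17.9 CPM in cKO. Every cKO library was below every control library, and the lowest control, control 4, had 1.38 times the level of the highest cKO library, cKO 1. The means were 40.5 ± 7.25 CPM and 20.4 ± 2.11 CPM (SD, n = 4 each) with a log2 fold change of -0.99 (SE 0.14). Such a fall in bulk RNA can come from fewer cells of a type or from less RNA per cell, and these cannot be told apart.

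For *Adad1*, the closest relative of *Adad2*, the genotypes overlapped. The gene (ENSMUSG00000027719) has 12 exons at chr3:37117676-37176079 on the forward strand. Its counts were 1056, 815, 928 and 505 in controls and 771, 689, 668 and 609 in cKO, or 71.7, 52.8, 58.6 and 39.4 CPM against 51.2, 44.6, 46.6 and 43.2 CPM. Control 1 was the highest of the 8 libraries and control 4 the lowest, so that the controls spanned the whole cKO range. The means were 55.7 ± 13.4 CPM and 46.4 ± 3.49 CPM (SD, n = 4 each), and the log2 fold change was -0.26 (SE 0.15).

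In CPM the editing enzymes varied little between libraries. In TPM they varied more, from 29.0 to 41.1 for *Adar* and from 16.45 to 23.1 for *Adarb1*. *Adar* (ENSMUSG00000027951), with 15 exons at chr3:89622329-89660753 on the forward strand, had 86.5, 103, 83.4 and 96.0 CPM in controls and 96.4, 89.4, 96.7 and 92.3 CPM in cKO. The cKO libraries all lay within the control range. Means were 92.2 ± 8.85 CPM and 93.7 ± 3.50 CPM (SD, n = 4 each), with a log2 fold change of 0.02 (SE 0.08). The libraries do not record strand, and 1365 bp of the *Adar* exons, or 16.8%, overlap exons of *Chrnb2*, a nicotinic receptor gene on the reverse strand, so the reads of both genes are in part uncertain. *Chrnb2* was listed at 1.33 to 2.94 TPM.

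*Adarb1* (ENSMUSG00000020262) lies at chr10:77126183-77254167 on the reverse strand and has 11 exons. Controls had 44.9, 54.7, 51.0 and 48.5 CPM and the cKO 57.7, 49.8, 57.6 and 51.5 CPM. cKO 1 and cKO 3 were above all controls, and the other two cKO libraries lay among the controls. The means of 49.8 ± 4.12 CPM and 54.1 ± 4.11 CPM (SD, n = 4 each) gave a log2 fold change of 0.12 (SE 0.09). The third gene of the ADAR family, *Adarb2*, a brain gene without known editing activity, had 4 counts in control 2 and 0 in the other 7 libraries, and was not tested.

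**Figure D1:**
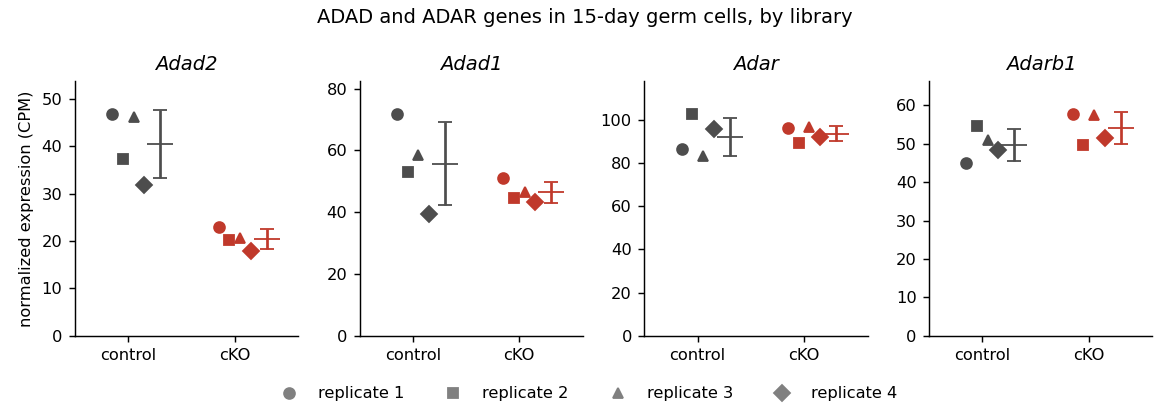
Normalized expression (CPM, linear axes from 0) of each gene in the 4 control and 4 cKO libraries, with replicate numbers as symbols and the mean and SD beside each group. For *Adad2* the cKO libraries lie at 17.9 to 23.0 CPM, below the controls at 31.8 to 46.8 CPM, whereas the groups overlap for *Adad1*, *Adar* and *Adarb1*.

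Of the 4 genes, *Adad2* was called by edgeR at an adjusted p under 0.05, a set of 8 genes that makes 0.0396% of all genes tested, all 8 lower in cKO. The *Adad2* call was lost in 8 of 19 fits, which were those without control 2, control 3, cKO 2, cKO 3 or cKO 4, limma-voom, filterByExpr and the fit that was not robust. The count of 8 genes fell to 0 without control 3, cKO 3 or cKO 4. DESeq2 called 302 genes, 1.50% of the 20187. *Adad2* was also the member with every cKO library below every control library, which held for 3.03% of all genes. The opposite order, every cKO library above, was seen in 2.47%. Since *Adad2* was chosen on this contrast, nothing is read from its call or from these shares for it. Across all genes the median log2 fold change was 0.01, with the 5th percentile at -1.67 and the 95th at 0.78.

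*Adad2* was compared with *Adad1* within each library, which leaves out differences in depth. *Adad2* counts, in CPM and not per length, were 65.2%, 70.7%, 78.8% and 80.6% of those of *Adad1* in controls and 45.0%, 45.4%, 44.2% and 41.4% in cKO. The groups did not overlap on this scale. Since *Adad2* was picked for its lower level in cKO, nothing is read from this separation. Per length, in TPM, the percentages were 42.0, 54.7, 44.5 and 69.6 in controls and 41.7, 40.6, 35.6 and 30.6 in cKO, so the lowest control was just above the highest cKO library.

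The CPM and TPM scales differ because the length that RSEM assigned to *Adad1* shifted between libraries. The number of expected counts behind 1 TPM, relative to the median gene of the same library, measures this length. For *Adad1* it was 0.445, 0.541, 0.395 and 0.610 in controls and 0.644, 0.627, 0.560 and 0.516 in cKO. Control 1 and control 3 stood lowest, and the range of 0.70 on the log2 scale was larger than that of 93.2% of the 10351 genes compared, whose median range was 0.20. The *Adad1* fold change was accordingly -0.50 on the scale of log2(TPM + 0.1), against -0.26 from counts.

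The same measure was nearly constant for *Adad2*, at 0.691 to 0.706 over all 8 libraries, a range of 0.03 on the log2 scale. *Adar* ranged over 0.28 on that scale and *Adarb1* over 0.45. For *Adarb1* the controls were close together, from 1.75 to 1.79, and the cKO libraries ran from 1.63 in cKO 3 to 2.23 in cKO 1. The sign of the small *Adarb1* difference depended on it, with a log2 fold change of 0.12 from counts and -0.03 from log2(TPM + 1).

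**Figure D2:**
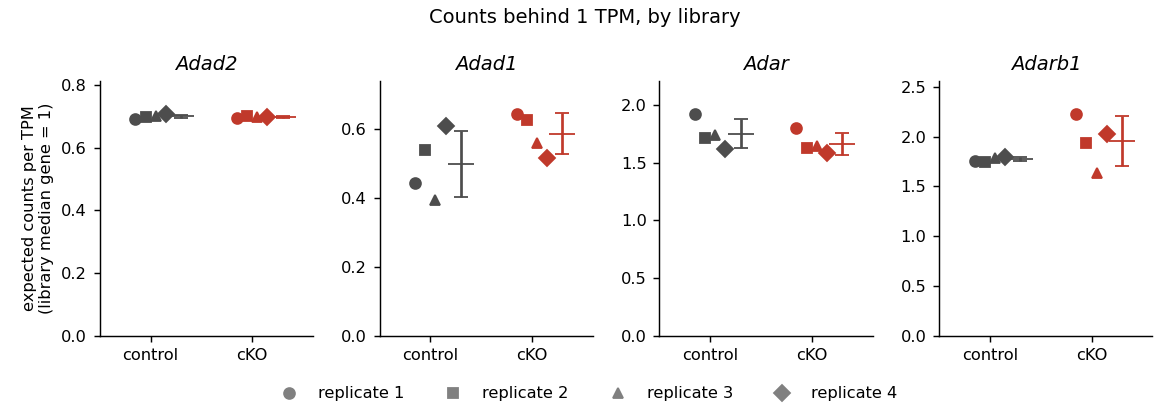
Expected counts behind 1 TPM, relative to the median gene of each library (linear axes from 0, no unit), for the 4 genes, with replicate numbers as symbols and the mean and SD beside each group. *Adad2* stays between 0.691 and 0.706, while *Adad1* ranges from 0.395 to 0.644 and *Adarb1* from 1.63 to 2.23.

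Per length, *Adad1* was the most abundant of the 4 transcripts. Mean TPM over the 8 libraries was 65.5 for *Adad1*, 36.5 for *Adar*, 29.1 for *Adad2* and 18.7 for *Adarb1*. Neighbours in this order were compared within libraries by exact sign-flip permutation tests of log2 TPM (two-sided, 3 pairs, adjusted by Benjamini-Hochberg). *Adad1* exceeded *Adar* by 0.78 ± 0.61 (SD, n = 8) on the log2 TPM scale, in 8 of 8 libraries, with an exact p of 0.0078, the smallest that 8 libraries allow, and an adjusted p of 0.0234. In log2 CPM, which is not per length, the difference of *Adad1* from *Adar* was -0.89 and *Adad1* was lower in 8 of 8 libraries, with an adjusted p of 0.0117 in the exact test.

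The lower ranks both involve *Adad2*, which was picked for its lower level in cKO. The tests pool both genotypes and draw on those values, so no order is read from them. *Adar* exceeded *Adad2* by 0.41 ± 0.67 in 6 of 8 libraries, with an adjusted p of 0.125 in the exact test. *Adad2* exceeded *Adarb1* by 0.55 ± 0.58 in 7 of 8 libraries, with an adjusted p of 0.0586 in the same exact test, which ran from 0.0703 to 0.117 when any library but cKO 3 was left out and was 0.0234, with a difference of 0.67, without cKO 3.

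By mean TPM, the rank of *Adad2* was not the same in both genotypes. In controls its level of 38.8 ± 6.08 TPM was next to that of *Adar*, 35.7 ± 6.18 TPM (SD, n = 4 each), and the mean log2 difference of *Adar* from *Adad2* was -0.12. In cKO its level of 19.4 ± 1.65 TPM was next to that of *Adarb1*, 18.6 ± 3.04 TPM, and the difference from *Adar* was 0.95. *Adad2* exceeded *Adarb1* by 1.03 in controls and by 0.07 in cKO on the log2 TPM scale. With 4 libraries a genotype, the exact test cannot go below 0.125. In controls it gave a p of 0.625 for *Adar* against *Adad2*, with *Adar* higher in 2 of 4 libraries. In cKO it gave 0.625 for *Adad2* against *Adarb1*, with *Adad2* higher in 3 of 4. *Adad2* was picked for its lower level in cKO, so nothing is read from its change of rank.

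**Figure D3:**
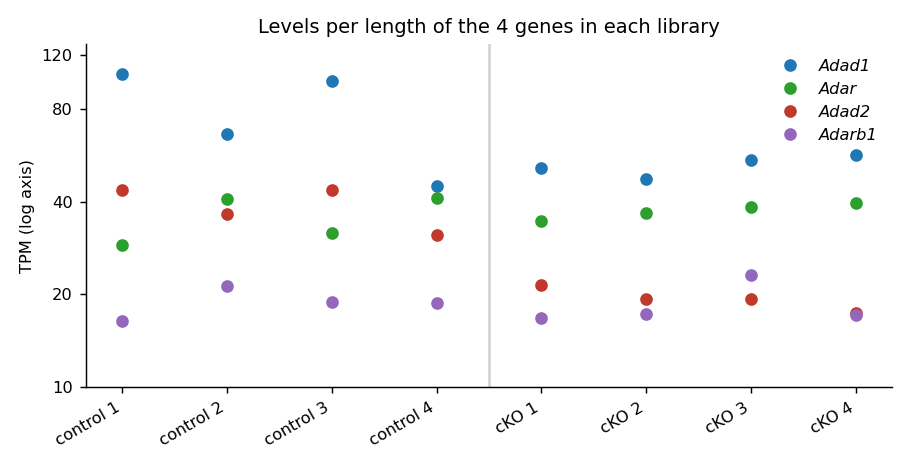
Levels per length (TPM, log axis) of the 4 genes in each of the 8 libraries, 1 point a library. *Adad1* is the highest in every library, and *Adad2* lies beside *Adar* in controls (31.3 to 43.8 TPM) and beside *Adarb1* in cKO (17.4 to 21.4 TPM).

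RNF17, the granule partner of ADAD2, is a Tudor domain protein of germ cells. *Rnf17* had 207, 143, 187 and 135 CPM in controls and 153, 125, 134 and 122 CPM in cKO. The highest values were those of control 1 and control 3, and the groups overlapped through control 2 and control 4. The log2 fold change was -0.33 (SE 0.14), with an adjusted p of 0.53 in edgeR's quasi-likelihood test.

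Other genes of double-stranded RNA biology were taken as 5 lists of 77 genes, of which 60 were tested. None of the 60 was called by edgeR or by DESeq2 in a fit without a block for replicate number. Calls with that block, *Rnf17* among them, are given below with the alternatives. Over all genes, without that block, edgeR called 0.0396% and DESeq2 1.50%. At an unadjusted p under 0.05 in edgeR there were 3 lower in cKO, *Irf3* and *Rnf17* among them, and 2 higher, *Stau2* and *Dicer1*, that is 5 of 60 where 8.90% of all genes passed (6.28% lower and 2.62% higher). In 2 genes, *Irf3* among them, every cKO library was below every control, 3.33% of the 60 against 3.03% of all genes. In *Stau2* and *Dicer1* every cKO library was above, also 3.33% of the 60 against 2.47% of all genes. The median log2 fold change of the 60 genes was 0.01, beside 0.01 for all genes.

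The list of other proteins with a double-stranded RNA-binding domain, with some related proteins, was the largest group by expression. Of 21 listed genes all but *Adarb2* were tested. The log2 fold changes of these 20, all outside the ADAR family, ran from -0.28 to 0.24 with a median of -0.01. *Son*, a splicing factor, had 274 ± 36.5 TPM in controls and 259 ± 51.0 in cKO (SD, n = 4 each). *Dhx9*, an RNA helicase, had 194 ± 8.43 and 190 ± 14.8 TPM. *Prkra*, a cofactor of Dicer and PKR, had 154 ± 26.5 and 167 ± 7.71 TPM.

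Members of this group whose libraries were all higher in cKO, 2 of 20 where 2.47% of all genes were, differed by small amounts. *Stau2*, which takes part in mRNA transport, had 27.0, 30.3, 32.4 and 31.2 CPM in controls and 33.7, 36.6, 37.7 and 34.5 CPM in cKO (log2 fold change 0.24, SE 0.10). *Dicer1*, which cuts double-stranded precursors into small RNAs, had 160 to 176 CPM in controls and 177 to 214 CPM in cKO (0.16, SE 0.07). Neither had an adjusted p under 0.05 in edgeR.

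Among the other nucleoside deaminases listed, the 9 tested genes of 11 had log2 fold changes from -0.19 to 0.56, with a median of 0.06. *Apobec3*, a cytidine deaminase that restricts retroelements, was the highest, with 43.1 ± 11.9 TPM in controls and 38.8 ± 6.79 in cKO (SD, n = 4 each). *Adal* followed with 15.8 ± 1.89 and 17.9 ± 3.21 TPM, and *Dctd*, the dCMP deaminase, with 12.8 ± 3.30 and 14.2 ± 2.37 TPM.

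Sensing of double-stranded RNA and the interferon response, which rise when ADAR1 is lost, were represented by 24 genes, of which 18 were tested. Their median log2 fold change was -0.02, with 10 genes below 0 and 8 above. *Irf3*, a transcription factor of the sensing pathway, had 62.0, 65.6, 66.1 and 62.3 CPM in controls and 47.9, 55.5, 54.9 and 58.4 CPM in cKO, with a log2 fold change of -0.24 (SE 0.08) and an adjusted p of 0.44 in edgeR's quasi-likelihood test. *Mavs*, the adaptor of the RNA sensors, had 30.8 ± 3.01 TPM in controls and 33.7 ± 2.89 TPM in cKO (SD, n = 4 each). The sensors *Ifih1* and *Rigi* had log2 fold changes of 0.19 (SE 0.14) and -0.20 (SE 0.16).

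Transcripts known to be recoded by ADARs were only in part expressed. Of 20 such genes 12 were tested, with a median log2 fold change of 0.12 (lowest -0.05, highest 0.66). *Copa* had 163 ± 1.93 TPM in controls and 164 ± 3.33 in cKO, *Igfbp7* 104 ± 21.9 and 118 ± 23.5 TPM, and *Flna* 88.1 ± 18.0 and 99.8 ± 32.8 TPM (SD, n = 4 each). The neuronal substrate *Htr2c* was listed at 0 in all 8 libraries. Editing of these transcripts was not measured.

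**Figure D4:**
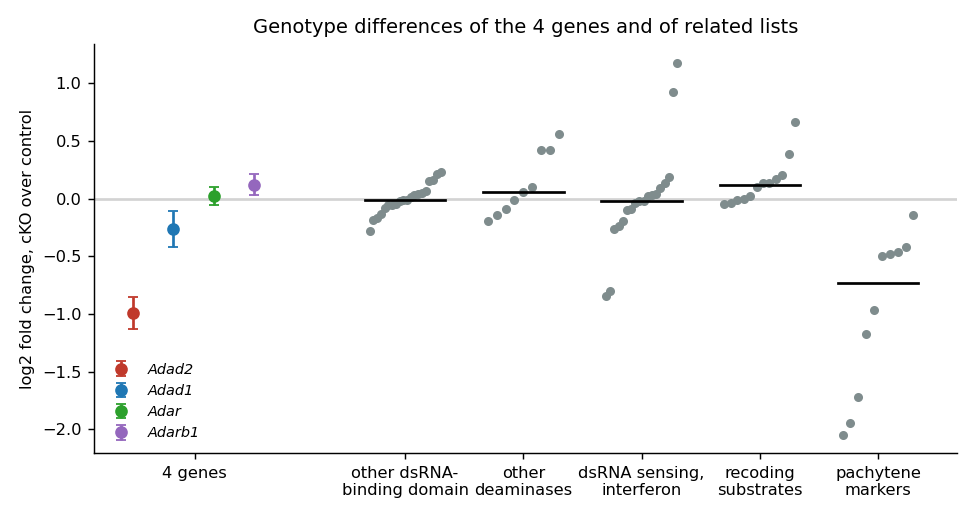
Log2 fold change, cKO over control, of the 4 genes (error bars are SE) and of each tested gene in 4 of the related lists and in the list of pachytene markers, with lines at the list medians. *Adad2* lies at -0.99, the medians of the RNA biology lists between -0.02 and 0.12, and that of the pachytene markers at -0.73.

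Markers of pachytene spermatocytes, the meiotic cells that first appear at about this age, also had lower values in cKO. All 10 had a log2 fold change below 0, with a median of -0.73. However, edgeR called none, where it called 0.0396% of all genes. DESeq2 called *Piwil1* alone, where it called 1.50% of all genes. At an unadjusted p under 0.05 in edgeR, 3 of the 10 were lower in cKO, where 6.28% of all genes were. Their summed level was 2256, 761, 1009 and 643 TPM in controls and 786, 353, 364 and 310 TPM in cKO. The sums overlapped, since cKO 1 was above control 2 and control 4, and *Ldhc* (361 TPM) and *Hspa2* (226 TPM) made most of the sum in cKO 1. *Piwil1*, a PIWI protein of spermatocytes, did not overlap, with 76.4 to 271 TPM in controls and 21.7 to 64.8 TPM in cKO (log2 fold change -2.05, SE 0.61). In CPM, *Piwil1* was the 1 marker of 10 with every cKO library below every control, which held for 3.03% of all genes. In these same libraries *Adad2* had 23.0 CPM in cKO 1 against 37.3 and 31.8 CPM in controls 2 and 4. The part of these cells in the *Adad2* difference was not tested.

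Spermatogonial markers had a median log2 fold change of 0.21, with 9 of 10 above 0, and those of early meiosis -0.04, with 5 of 10 above 0. The 5 tested spermatid markers had a median of -0.37, with 4 below 0 and 1 above. DESeq2 called 1 of them, where it called 1.50% of all genes, and that was *Acr*, an acrosomal protease. Its log2 fold change was -1.90 (SE 0.66), with an adjusted p of 0.033 in DESeq2 and 0.473 in edgeR, and its groups overlapped. *Dbil5* had a log2 fold change of -1.05 (SE 0.51). *Tnp1* went the other way, at 1.71 (SE 1.42), with only 0 to 7 counts a library. All 10 listed spermatid markers summed to 33.0 to 83.2 TPM in controls and 20.3 to 34.4 TPM in cKO, and *Tnp2*, *Prm1* and *Catsper1* were at 0 in all libraries. Mitochondrially encoded transcripts made 7.90% to 9.35% of TPM in controls and 9.29% to 9.65% in cKO.

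**Figure D5:**
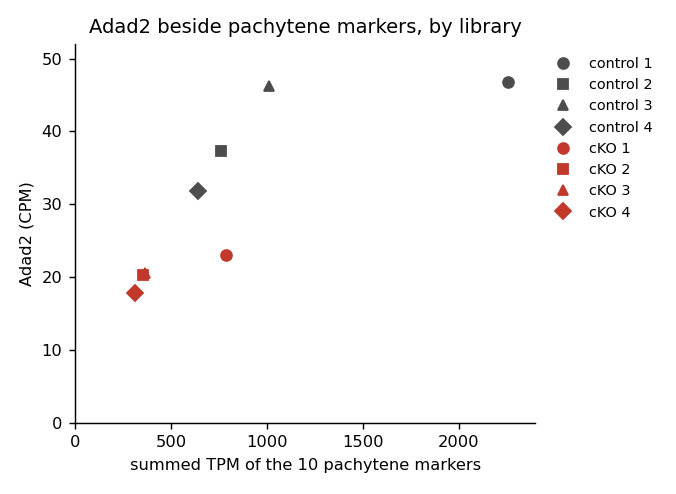
*Adad2* (CPM) against the summed TPM of 10 pachytene markers, 1 point for each control and cKO library, both axes linear from 0. The cKO 1 library has 786 TPM of markers, more than control 2 (761) and control 4 (643), and 23.0 CPM of *Adad2*, less than either (37.3 and 31.8). The marker *Piwil1*, not shown alone, had 64.8 TPM in cKO 1, 91.9 in control 2 and 76.4 in control 4. The part of pachytene cells in the *Adad2* difference was not tested.

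Genes whose log2 CPM followed each of the 4 most closely over the 8 libraries were found by the root mean square (RMS) difference of the centred values, among 14843 protein-coding genes. Nearest to *Adad2* was *Pkmyt1*, a kinase that inhibits CDK1, with an RMS difference of 0.105 against a median of 0.573 over all genes. *Pkmyt1* had 46.3 CPM in controls and 25.5 CPM in cKO. It was followed by *3300002I08Rik* (0.152), *Ccdc173* (0.155), *Pkd2l1* (0.160) and *Elfn2* (0.160). Their log2 fold changes ran from -1.24 in *Elfn2* to -0.86 in *Pkmyt1*. The RMS difference takes in the genotype difference for which *Adad2* was picked. Fold changes near that of *Adad2* therefore follow from the measure, and nothing is read from them. *3300002I08Rik* was low, at 1.19 CPM in controls and 0.508 CPM in cKO.

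The genes nearest to the other 3 differed from these. *Ccdc117* (0.052), *Fam241a*, *B3galnt1*, *Harbi1* and *Fam216a* (0.073) were nearest to *Adad1*, against a median of 0.333. Nearest to *Adar* were *Rtf2* (0.042), *Slc43a2*, *Zfp277*, *Higd1a* and *Por* (0.048), against 0.213. *Adarb1* was followed most closely by *Rnmt* (0.043), the mRNA cap methyltransferase, *Slc25a18*, *Txn1*, *Naa50* and *Cpped1* (0.053), against 0.226.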

How the data were processed

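RNA-seq libraries of 15-day germ cells from 4 *Mgat2*[F/F] control and 4 cKO males were compared. The authors aligned reads to mm39 with STAR 2.7.9a, using Ensembl 105, and estimated genes with RSEM 1.3.3. The deposited expected counts are not normalized, and 15.2% were not whole, so they were rounded. The deposited TPM values are scaled within each library for length and depth. The authors' own comparison was made with DESeq2 1.38.3 and is not used here.

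Genes with at least 1 TPM in at least 1 library were tested with edgeR 4.0.16 (R 4.3.3; TMM factors, robust quasi-likelihood F-test, Benjamini-Hochberg adjustment over all 20187 genes, threshold 0.05). CPM are TMM-normalized. DESeq2 1.42.0, limma-voom (limma 3.58.1), other factors, other filters and left-out libraries were alternatives, with a pseudocount of 1 or 0.1 on log2 TPM. The script was tested on simulated data. Proteins were translated from canonical GENCODE transcripts and aligned locally (BLOSUM62 matrix).

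The members and lists were chosen with earlier results of these data known. Genes named are the 4 members, *Mgat2*, *Adarb2*, *Rnf17*, the 3 list genes with highest mean TPM, list genes with separate genotypes, extremes of marker lists and the 5 nearest genes of each member. *Chrnb2*, *Ifih1*, *Rigi*, *Htr2c*, *Piwil1*, *Ldhc*, *Hspa2*, *Acr*, *Tnp1*, *Tarbp2* and *Dhx58* were added after their values were seen. Some list genes that this rule names are not reported here. Replicates are different males, and p-values measure the spread between them. Totals of 12584726 to 15907505 counts set the precision.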

Additional observations from a re-analysis of the deposited data

Results flagged for a closer look

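Groups of 4 libraries were searched for a library standing apart by Dixon's criterion at the 95% level, and 2 of 70 groups were picked out, where chance gives about 1 in 20. The *Adarb1* level in cKO 3 was 23.12 TPM against 16.7 to 17.2 TPM in the other cKO libraries, a gap of 0.923 of the range. In CPM, cKO 3 did not stand apart for *Adarb1*, with 57.6 CPM beside 57.7 CPM in cKO 1. The summed level of pachytene markers in cKO 1 was 785.97 TPM against 310 to 364 TPM in the other cKO libraries, a gap of 0.887 of the range.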

How the results depend on the processing

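Over 20 alternatives to the fit of counts, the log2 fold change ran from -1.08 to -0.91 for *Adad2*, from -0.50 to -0.12 for *Adad1*, from -0.02 to 0.08 for *Adar* and from -0.03 to 0.17 for *Adarb1*, whose values were -0.0275 with log2(TPM + 1) and -0.0291 with log2(TPM + 0.1). *Adad2* was among the genes called in 11 of 19 fits with a test, the first fit included, and the other 3 genes in none. *Adad2* was picked on this contrast, so nothing is read from this count for it or from its difference from the other 3.

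The number of genes called was 8, and 8 with DESeq2 size factors in edgeR, 302 with DESeq2, 18 with upper-quartile factors, 0 with limma-voom, 35 without a filter on low values, 0 with filterByExpr, 0 without the robust fit and 855 with replicates 2 to 4 only. It ran from 0 to 32 when 1 library was left out: 24, 2, 0 and 32 without controls 1 to 4, and 15, 1, 0 and 0 without cKO 1 to 4. The cause was not tested. At an unadjusted p under 0.05 edgeR passed 1796 genes.

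The labels number replicates 1 to 4 in both genotypes but pair no males. Deviations of same-numbered libraries from their group means correlated at 0.53, 0.14, 0.04 and 0.20. Differently numbered libraries correlated at -0.07 on average, below each of these values. Of 8 libraries, 4 correlated best with their own number. Since the labels pair no males, the numbers were not taken as pairs, and what same-numbered libraries share was not tested. With the replicate block 1464 genes were called by edgeR and 1223 by DESeq2, among them 4 listed genes (*Rnf17*, *Tarbp2*, *Irf3* and *Dhx58*) and 2 (*Rnf17* and *Tarbp2*).

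In log2 CPM, which is not per length, the differences were -0.89 for *Adad1* minus *Adar*, 1.70 for *Adar* minus *Adad2* and -0.86 for *Adad2* minus *Adarb1*, which reversed the first and the last on a scale where longer transcripts count for more. Leaving out 1 library, *Adad2* minus *Adarb1* ran from 0.43 to 0.67 in log2 TPM, the latter without cKO 3.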
